A study of Mus musculus with 18 samples.

Results

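Polycomb group proteins keep developmental genes silent through 2 complexes that modify histones, PRC2 and PRC1. The 10 genes described here were taken by their symbols, each on its array probe set with the highest mean log2 value: Ezh1, Ezh2, Eed, Suz12, Jarid2 and Mtf2 of PRC2, and Bmi1, Pcgf6, Cbx2 and Cbx7 of PRC1. All 10 were measured, on 11 probe sets, out of 19937 genes on 18 mouse arrays, and only Eed had a second probe set.

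The arrays came from a study of reprogramming, in which fibroblasts are turned into induced pluripotent stem (iPS) cells. The 6 groups of 3 arrays each were CD1 mouse embryonic fibroblasts (MEFs), the partially reprogrammed line EOS3F-24, the same line after 2i conversion, the fully reprogrammed lines EOS3F-28 and EOS3F-29, and the embryonic stem (ES) cell line J1. The iPS lines had been derived from CD1 MEFs with retroviruses carrying Oct4, Klf4 and Sox2 (pMX vectors), and 2i conversion used a MEK inhibitor at 2 μM and a GSK inhibitor at 12 μM in ES medium with LIF. MEFs were low passage primary cells in serum medium, whereas LIF and a layer of arrested feeder cells supported iPS and J1 cells, and puromycin (1 μg/mL) was applied to the EOS3F lines. In comparisons of the iPS lines with MEFs the feeder cells, LIF and drug selection cannot be told apart from reprogramming, and in that of J1 the feeder cells and LIF cannot be told apart from the cell type. The labels do not say whether puromycin was kept during 2i conversion, so the converted and partial cells may also differ in drug selection. Only the converted cells had received the inhibitors. Against the full lines and J1, the state they reached cannot be told apart from the inhibitors, the cell line or drug selection. Partial reprogramming was represented by 1 line, full reprogramming by 2 and ES cells by 1. No label says that replicate arrays came from separate cultures, so the p-values measure the spread between arrays, which may be technical.

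In PRC2, the SET domain enzymes Ezh1 and Ezh2 place the repressive mark H3K27me3, Eed binds that mark and stimulates the enzyme, and Suz12 is the scaffold without which the complex falls apart. Jarid2 and Mtf2 are accessory subunits that bring PRC2 to CpG islands. PRC1 ubiquitinates histone H2A through the Ring1 and Rnf2 enzymes. Its Pcgf subunit sets the form of PRC1: Bmi1 (Pcgf4) belongs to the canonical forms, which also carry a Cbx reader of H3K27me3 such as Cbx2 or Cbx7, and Pcgf6 to a variant form. Cbx7 is known as the main Cbx protein of mouse ES cells, Bmi1 as a repressor of the Cdkn2a locus in fibroblasts, and loss of PRC2 or PRC1 in ES cells is known to release lineage genes.

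The promoters of 4 members are shown because these members stand for the patterns found. Ezh2 and Suz12 moved with the PRC2 core, and Bmi1 went the other way. Eed was the member whose arrays after 2i conversion did not overlap those of any other group. Each run is the 250 bases upstream of the RefSeq start site (GRCm38.p6), 5′ to 3′ on the gene's strand. Capitals mark matches on either strand to an E2F-type motif (TTTCCCGC, TTTGGCGC, TTTCGCGC or TTTGCCGC), an E-box (CACGTG), an octamer (ATGCAAAT) or a CCAAT box (CCAAT). None of these motifs overlapped another in the promoters shown. Ezh2 lies at chr6:47595031-47595280 (minus strand), Eed at chr7:89980977-89981226 (minus strand), Suz12 at chr11:79992856-79993105 (plus strand) and Bmi1 at chr2:18676768-18677017 (plus strand).
Ezh2: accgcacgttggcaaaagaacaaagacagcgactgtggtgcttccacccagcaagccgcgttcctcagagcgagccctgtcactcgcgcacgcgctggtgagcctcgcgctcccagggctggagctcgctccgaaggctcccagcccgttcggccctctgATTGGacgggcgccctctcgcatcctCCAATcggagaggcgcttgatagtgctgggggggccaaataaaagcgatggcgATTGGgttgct
Eed: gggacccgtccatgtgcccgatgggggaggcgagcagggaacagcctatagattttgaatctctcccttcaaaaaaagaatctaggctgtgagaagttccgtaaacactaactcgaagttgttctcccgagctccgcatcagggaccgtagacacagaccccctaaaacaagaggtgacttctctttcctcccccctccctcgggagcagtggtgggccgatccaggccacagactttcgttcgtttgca
Suz12: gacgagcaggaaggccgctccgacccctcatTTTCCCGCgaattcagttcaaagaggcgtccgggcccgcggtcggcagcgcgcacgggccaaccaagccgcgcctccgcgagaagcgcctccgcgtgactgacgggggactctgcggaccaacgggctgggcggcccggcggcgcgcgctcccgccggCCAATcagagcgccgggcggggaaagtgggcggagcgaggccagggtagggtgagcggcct
Bmi1: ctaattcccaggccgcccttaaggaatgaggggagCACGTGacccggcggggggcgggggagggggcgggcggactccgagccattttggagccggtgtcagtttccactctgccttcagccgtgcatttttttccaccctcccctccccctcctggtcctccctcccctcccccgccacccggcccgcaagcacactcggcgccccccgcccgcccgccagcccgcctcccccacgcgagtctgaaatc

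The RefSeq promoter table matched 9 of the 10 members with 11 promoters, of which Jarid2 and Mtf2 had 2 each. A CCAAT box was found in 5 of the 11, against 33.8% of all 32851 promoters of this length. Ezh2 held 3 of them, which 2.79% of all promoters matched or exceeded. The E2F-type motif occurred in 1 member promoter, that of Suz12, where it began 219 bases upstream of the start, and in 1.86% of all promoters. The E-box occurred in 1, that of Bmi1, and in 6.02% of all. The octamer, a word bound by Oct4, matched 0 of the 11 and 1.60% of all. Most member promoters were rich in CpG: they held 2 to 37 CpG dinucleotides with a median of 22, and 10 of 11 exceeded the median of 6 over all promoters. These matches are descriptions of sequence, and binding at them was not measured here.

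Values are log2 expression per probe set, on which a difference of 1 is a 2-fold change. Array medians lay between 3.92 and 4.11, and arrays of a group correlated over genes at 0.970 to 0.992. Means of the marker lists followed the labels. The mean of 12 pluripotency genes was 3.54 to 3.61 in MEFs, 4.48 to 4.92 in the partial line, 7.12 to 7.59 in the full lines, 7.86 to 8.19 in converted cells and 8.02 to 8.27 in J1. The mean of 13 fibroblast and feeder genes was 8.39 to 8.67 in MEFs and 5.79 to 8.03 in the feeder-grown groups, so this mean stayed above the array medians there. Not every gene followed it. At an adjusted p under 0.05 (limma), 8 were lower than in MEFs in the partial line, 9 in the full lines and 10 in J1. In each of these comparisons 1 was higher, by 1.42, 1.55 and 1.23. A mean over 15 genes of dividing cells was 6.26 to 7.04 in MEFs, 7.14 to 7.23 in the partial line and 7.25 to 7.90 in the other groups. In such bulk samples, fewer cells of a type and less RNA per cell cannot be told apart.

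Polycomb transcript levels fell into 3 patterns across the 6 groups. Jarid2, Mtf2, Eed, Suz12 and Pcgf6 were lowest in MEFs, intermediate in the partial line and higher in converted, full iPS and J1 cells. Cbx7 and Bmi1 had arrays in the partial line nearer to the MEFs, Cbx7 low and Bmi1 high, and moved in opposite directions after conversion. Mtf2 also lay nearer to the MEFs, with means of 6.12 in MEFs, 6.91 in the partial line and 8.30 in the full lines. So did Jarid2, Eed and, barely, Suz12, and the first and second patterns therefore differ by degree. Ezh1, Ezh2 and Cbx2 had the narrowest ranges of group means, 0.92, 1.46 and 0.35. The range was 3.10 for Jarid2, 2.47 for Mtf2, 2.06 for Eed, 2.05 for Cbx7, 1.79 for Bmi1, 1.62 for Pcgf6 and 1.50 for Suz12. The range of Ezh2 was thus near that of Suz12. As in the first pattern, Ezh2 was lowest in MEFs and next lowest in the partial line, but its partial arrays overlapped the full lines.

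**Figure D1:**
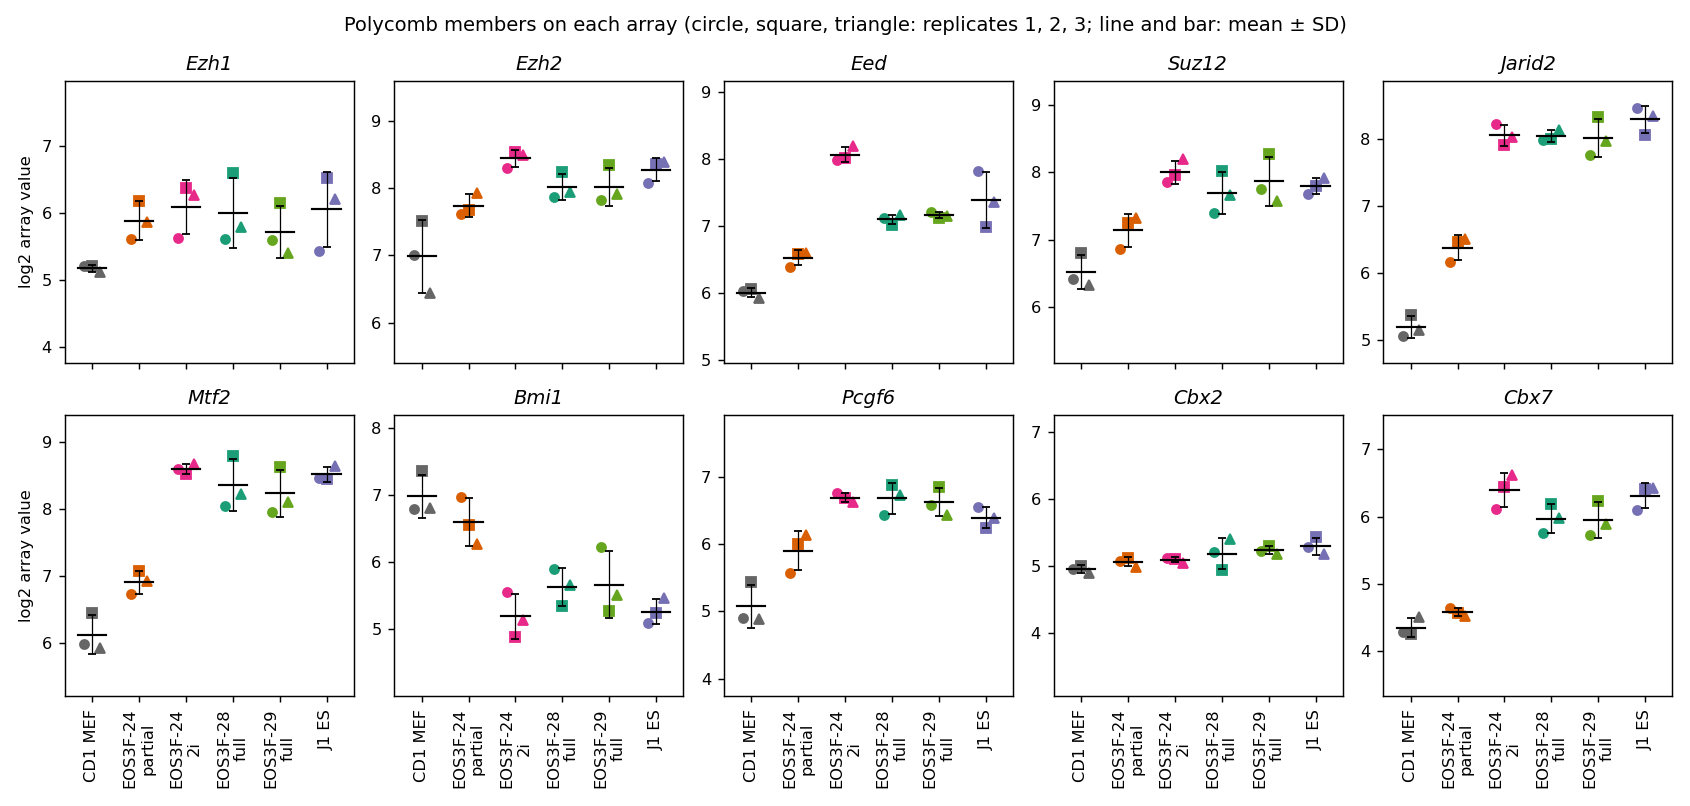
Log2 array value of each of the 10 members on all 18 arrays, by group (x axis). Points are single arrays, the line and bar are the mean and SD of 3 arrays, and every panel spans the same number of log2 units. Jarid2 lies at 5.06 to 5.38 in MEFs and at 7.75 to 8.46 in full iPS and J1 cells, and Bmi1 is the member with its highest values in MEFs.

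Jarid2, the accessory subunit that joins PRC2 to ubiquitinated chromatin and CpG islands, had the widest range of group means, 8.55-fold. Its values were 5.06, 5.38 and 5.14 in MEFs, 6.16, 6.45 and 6.50 in the partial line, 8.22, 7.91 and 8.02 in converted cells, 7.98, 8.00 and 8.14 in EOS3F-28, 7.75, 8.32 and 7.96 in EOS3F-29, and 8.46, 8.06 and 8.34 in J1. The arrays of MEFs, of the partial line and of the 4 other groups formed 3 bands that did not overlap. Within the upper band all neighbouring groups in the order of means overlapped.

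Mtf2, the Polycomb-like protein that binds unmethylated CpG DNA, had the next widest range, 5.55-fold. It read 5.99, 6.46 and 5.93 in MEFs, 6.73, 7.07 and 6.93 in the partial line, 8.59, 8.52 and 8.67 in converted cells, 8.05, 8.79 and 8.23 in EOS3F-28, 7.96, 8.63 and 8.11 in EOS3F-29, and 8.47, 8.44 and 8.65 in J1. As for Jarid2, MEFs lay below the partial line and the partial line below all others, with no overlap between these bands.

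Eed, the reader of H3K27me3, rose in steps and was the member whose converted arrays all lay above every array of the other groups. Its values were 6.02, 6.06 and 5.93 in MEFs, 6.40, 6.59 and 6.60 in the partial line, 7.99, 8.01 and 8.20 in converted cells, 7.11, 7.02 and 7.16 in EOS3F-28, 7.21, 7.12 and 7.15 in EOS3F-29, and 7.82, 6.99 and 7.36 in J1. The J1 arrays were the most spread of these, and the lowest of them lay below both full lines. The second Eed probe set stayed between 3.03 and 3.61 on all 18 arrays, below the array medians, and was called in 0 of the 10 comparisons (limma, lowest adjusted p = 0.477). The steps of Eed therefore rest on 1 probe set.

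Ezh2, the PRC2 methyltransferase of dividing cells, was lowest in MEFs and highest in converted cells. It read 7.01, 7.52 and 6.43 in MEFs, 7.62, 7.67 and 7.94 in the partial line, 8.31, 8.54 and 8.50 in converted cells, 7.88, 8.24 and 7.94 in EOS3F-28, 7.82, 8.35 and 7.91 in EOS3F-29, and 8.08, 8.37 and 8.40 in J1. The MEF arrays were the widest apart, and no MEF array reached the partial line, whose highest array lay within the range of both full lines. The marker mean of dividing cells ordered the MEF arrays in the same way, at 6.76, 7.04 and 6.26 for replicates 1, 2 and 3. Its part in the Ezh2 difference was not tested.

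Suz12 followed Ezh2 closely. It ranged from 6.32 to 6.80 in MEFs, from 6.85 to 7.31 in the partial line, from 7.86 to 8.19 in converted cells and from 7.40 to 8.27 in the full lines, with J1 at 7.69 to 7.92. Its MEF and partial arrays formed separate bands below the 4 other groups, which overlapped one another. Ezh1, the Ezh2 paralog linked to non-dividing cells, ranged from 5.12 to 5.20 in MEFs and from 5.40 to 6.59 over all other arrays, so MEFs were lowest and no order among the other groups could be seen beyond their spread.

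Bmi1, the Pcgf subunit of canonical PRC1, was the one member that was highest in MEFs. Its values were 6.79, 7.35 and 6.80 in MEFs, 6.97, 6.56 and 6.27 in the partial line, 5.56, 4.88 and 5.13 in converted cells, 5.89, 5.34 and 5.66 in EOS3F-28, 6.22, 5.27 and 5.50 in EOS3F-29, and 5.09, 5.24 and 5.46 in J1. MEF and partial arrays overlapped, and every array of both lay above those of all other groups. Replicate 1 was the highest array in 4 of the 5 feeder-grown groups, which returns below with the feeder markers.

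Cbx7, a reader subunit that binds H3K27me3, showed the opposite course. It read 4.27, 4.25 and 4.50 in MEFs, 4.64, 4.56 and 4.51 in the partial line, 6.12, 6.44 and 6.62 in converted cells, 5.76, 6.18 and 5.97 in EOS3F-28, 5.72, 6.24 and 5.89 in EOS3F-29, and 6.09, 6.41 and 6.43 in J1. A gap of more than 1 log2 unit separated the partial line from the 4 groups above it, whereas its lowest array and the highest MEF array nearly met. MEF and partial values lay close to the array medians, where array values compress differences.

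Pcgf6, the Pcgf subunit of a variant PRC1 that acts with the E2f6 and Mga transcription factors, ranged from 4.88 to 5.44 in MEFs, from 5.58 to 6.14 in the partial line, from 6.63 to 6.77 in converted cells, from 6.44 to 6.89 in the full lines and from 6.25 to 6.55 in J1. It followed the same 3 bands as Jarid2. Cbx2, another Cbx reader, spanned only 4.89 to 5.44 over all 18 arrays, and its groups overlapped at every step of the order of means.

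The first comparison set the partial line against the fibroblasts it came from. Of the 10 members, 6 were higher in the partial line and 0 were lower, at an adjusted p under 0.05 (limma, adjusted over all 19937 genes by Benjamini-Hochberg, here named called). Over all genes, 13.7% were called higher and 10% lower. Jarid2 was 2.26-fold higher (log2 difference 1.18 ± 0.15 SE, adjusted p = 1.38e-05) and Pcgf6 1.78-fold (0.83 ± 0.17, adjusted p = 0.00152). Mtf2 was 1.72-fold higher (adjusted p = 0.00532), Ezh2 1.69-fold (adjusted p = 0.0121), Suz12 1.54-fold (adjusted p = 0.022) and Eed 1.44-fold (adjusted p = 0.014). For 8 members the arrays of the groups did not overlap, as for 39.6% of all genes. The median difference of the members was 0.67, beside 0.04 over all genes.

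The 4 members not called against MEFs were Ezh1 (0.71 ± 0.29, adjusted p = 0.085, but 0.00611 with only these groups in the fit), Cbx7 (0.23 ± 0.15, adjusted p = 0.323), Cbx2 (0.11 ± 0.11, adjusted p = 0.521) and Bmi1 (-0.38 ± 0.24, adjusted p = 0.301), all by limma. The 95% interval for Bmi1, -0.89 to 0.13, leaves room for a fall of nearly 2-fold. The count dropped to 3 without partial replicate 3 or without MEF replicate 3, when Ezh2 (adjusted p = 0.0639 and 0.0816), Eed (0.0579 and 0.0535) and Suz12 (0.1 and 0.0959) were lost. Eed was also lost without partial replicate 2 (adjusted p = 0.0546) and with both probe sets averaged (0.147), and Suz12 without partial replicate 2 (0.0837) or MEF replicate 1 (0.0798).

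Full iPS cells, taken as the mean of both full lines, were called different from MEFs at all 10 members, though the calls of Ezh1 and Cbx2 were lost under several alternatives. Of these, 9 were higher and 1, Bmi1, was lower, while 17.1% of all genes were called higher and 17.8% lower. The differences reached 2-fold for 8 members, against 7.81% of all genes. Jarid2 was 7.13-fold higher (2.83 ± 0.13, adjusted p = 3.12e-11), Mtf2 4.51-fold (2.17 ± 0.17, adjusted p = 2.51e-08) and Cbx7 3.07-fold (1.62 ± 0.13, adjusted p = 6.62e-08). Pcgf6 was 1.58 ± 0.15 higher on the log2 scale (adjusted p = 2.76e-07). Among the PRC2 core, Suz12 was 2.41-fold, Eed 2.18-fold and Ezh2 2.05-fold higher (adjusted p = 1.07e-05, 2.48e-06 and 0.00019). Bmi1 fell by 1.33 on the log2 scale, 2.52-fold (SE 0.21, adjusted p = 7.91e-05).

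The 2 smallest differences from MEFs were those of Ezh1 (0.68 ± 0.25, limma adjusted p = 0.0393) and Cbx2 (0.26 ± 0.09, adjusted p = 0.0381). Ezh1 was lost without any 1 of the 3 MEF arrays or without replicate 2 of EOS3F-28 or EOS3F-29 (adjusted p 0.0857 to 0.11), and when EOS3F-29 alone stood for full reprogramming (0.54, adjusted p = 0.168). Cbx2 was lost without any 1 MEF array, replicate 1 or 3 of EOS3F-28, or replicate 1 or 2 of EOS3F-29 (adjusted p 0.0503 to 0.136). It was also lost with the trended robust variance (adjusted p = 0.0611), with only these groups in the fit (0.0951), and against MEFs in EOS3F-28 alone (0.117) or EOS3F-29 alone (0.0538).

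J1 cells gave a like list against the same MEF arrays, so these comparisons share their controls and are not independent. Again 9 members were called higher and 1 lower, beside 20.6% and 17.5% of all genes, and 8 by at least 2-fold, beside 11.3%. Jarid2 was 8.55-fold higher (3.10 ± 0.15, limma adjusted p = 7.88e-11), Mtf2 5.27-fold (adjusted p = 4.39e-08), Cbx7 3.92-fold (adjusted p = 3.63e-08) and Eed 2.61-fold (adjusted p = 1.22e-06). Bmi1 was 3.29-fold lower (-1.72 ± 0.24, adjusted p = 2.37e-05). Ezh2 and Suz12 were each 2.45-fold higher and Pcgf6 2.51-fold. Ezh1 (0.88 ± 0.29) and Cbx2 (0.35 ± 0.11) passed at adjusted p = 0.0212 and 0.0164. Ezh1 was lost without J1 replicate 2 (adjusted p = 0.121), J1 replicate 3 (0.0743) or MEF replicate 3 (0.0573), and Cbx2 without J1 replicate 2 (0.0806) or MEF replicate 3 (0.0583).

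**Figure D2:**
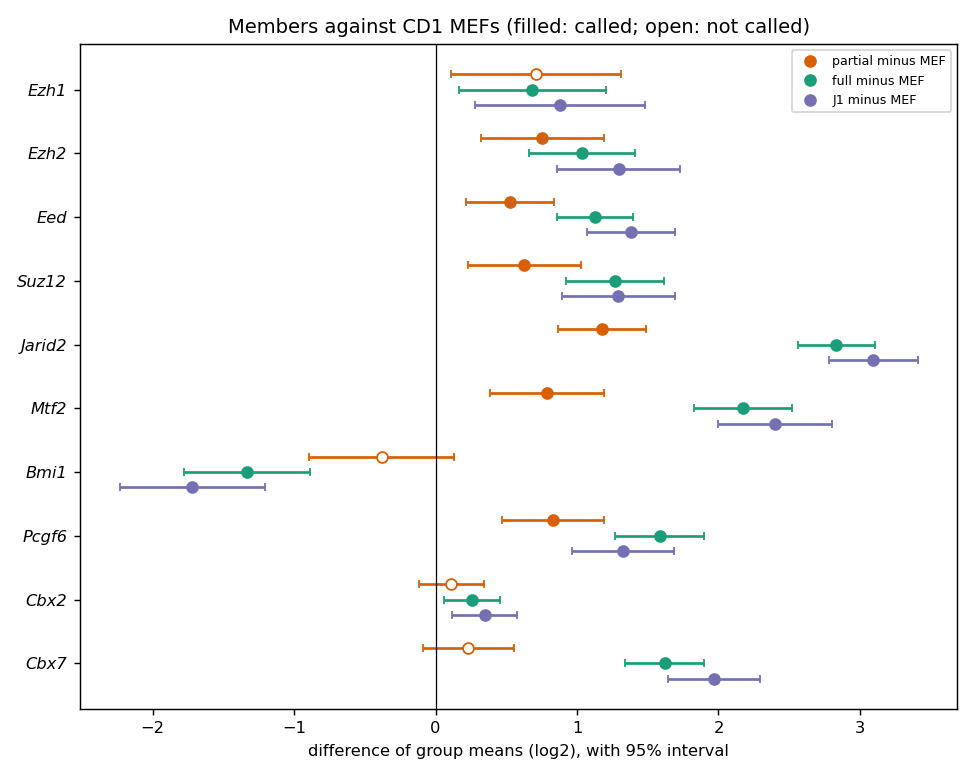
Difference of group means on the log2 scale from CD1 MEFs (x axis) for each member (y axis) in the partial line, the full lines and J1, with 95% intervals. Filled points were called and open ones were not. Bmi1 lies left of 0 in all 3 comparisons and is filled for the full lines and J1 only, and Jarid2 is the rightmost member, at 1.18, 2.83 and 3.10.

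The partial line was then compared with pluripotent cells, the contrast that separates partial from full reprogramming. Against the full lines, 6 members were lower in the partial line and 1, Bmi1, was higher, while 5.78% of all genes were called lower and 12.8% higher. Jarid2 was lower by -1.66 ± 0.13 (limma adjusted p = 5.52e-08), Mtf2 by -1.39 ± 0.17 (adjusted p = 9.3e-06) and Cbx7 by -1.39 ± 0.13 (adjusted p = 7.67e-07). Pcgf6 (-0.76 ± 0.15), Suz12 (-0.64 ± 0.16) and Eed (-0.60 ± 0.13) differed less, at adjusted p = 0.00132, 0.00967 and 0.00254. Bmi1 was 0.95 ± 0.21 higher (adjusted p = 0.00343).

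Ezh2 (-0.28 ± 0.18, 95% interval -0.66 to 0.10), Cbx2 (-0.15 ± 0.09, -0.34 to 0.05) and Ezh1 (0.03 ± 0.25, -0.50 to 0.55) were not called between the partial and full lines (limma adjusted p = 0.336, 0.333 and 0.963). Among the members, the largest deficits of the partial line were thus those of the PRC2 subunits Jarid2 and Mtf2 and of the PRC1 reader Cbx7. Whether they exceed the difference of the enzyme Ezh2 was not tested. Suz12 was lost without partial replicate 1 (-0.50, adjusted p = 0.0789) and against EOS3F-28 alone (-0.56, adjusted p = 0.0592), and Cbx2 passed with cyclic loess (-0.27, adjusted p = 0.0482).

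Against J1, with the same partial arrays, 6 members were again lower and 1 was higher in the partial line, beside 9.65% and 13.3% of all genes. Jarid2 (-1.92 ± 0.15), Cbx7 (-1.74 ± 0.15) and Mtf2 (-1.61 ± 0.19) led, with limma adjusted p = 4.52e-08, 2.26e-07 and 7.03e-06, and Bmi1 was 1.34 ± 0.24 higher (adjusted p = 0.000532). Eed differed by -0.86 ± 0.15 (adjusted p = 0.000308), Suz12 by -0.66 ± 0.19 (adjusted p = 0.0163) and Pcgf6 by -0.50 ± 0.17 (adjusted p = 0.0433). Equal replicate numbers paired these arrays (see the pairing check in the processing notes), and with the replicate block the Pcgf6 call was lost (adjusted p = 0.0534). Pcgf6 was also lost without replicate 1 or 2 of the partial line or replicate 1 or 3 of J1 (adjusted p 0.068 to 0.219), and Suz12 without partial replicate 1 (0.0885) or J1 replicate 3 (0.069). Ezh2, at -0.54 ± 0.21 (adjusted p = 0.0714), passed with cyclic loess (adjusted p = 0.0354), with housekeeping centring (0.0174) and with only these groups in the fit (0.0165). Cbx2, at -0.23 ± 0.11 (adjusted p = 0.141), passed with cyclic loess (0.0381) and housekeeping centring (0.045).

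The conversion comparison asked what changed in the partial line with the MEK and GSK inhibitors. In converted cells 7 members were higher than in the partial line and 1 was lower, while 9.36% of all genes were called higher and 13% lower. The changes reached 2-fold for 5 members, against 5.22% of all genes, and 8 members had no overlap between the groups' arrays, against 37.8%. Cbx7 rose 3.53-fold (1.82 ± 0.15, limma adjusted p = 1.28e-07), Mtf2 3.22-fold (1.69 ± 0.19, adjusted p = 4.29e-06), Jarid2 3.21-fold (1.68 ± 0.15, adjusted p = 2.17e-07) and Eed 2.90-fold (1.54 ± 0.15, adjusted p = 6.3e-07). Bmi1 fell by 1.41 on the log2 scale, 2.66-fold (SE 0.24, adjusted p = 0.000338).

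Suz12 (1.83-fold, limma adjusted p = 0.0026), Pcgf6 (1.73-fold, adjusted p = 0.00225) and Ezh2 (1.63-fold, adjusted p = 0.019) rose less. Ezh1 (0.21, 95% interval -0.40 to 0.81) and Cbx2 (0.03, -0.20 to 0.26) were not called, at adjusted p = 0.707 and 0.903. The Ezh2 call was lost without converted replicate 2 (adjusted p = 0.0717) or 3 (0.0615), and without partial replicate 1 (0.0704) or 2 (0.0664). The median difference of the members was 0.83, beside 0.00 over all genes. Markers of dividing cells moved alongside: 9 of 15 were called higher and 2 lower, and their part in the changes of the members was not tested. Of 13 fibroblast and feeder markers, 0 were called by limma and 1 passed an unadjusted 0.05, but 11 lay below 0 in converted cells, with a median difference of -0.40 and a range of -1.34 to 0.13. Their part was not tested.

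**Figure D3:**
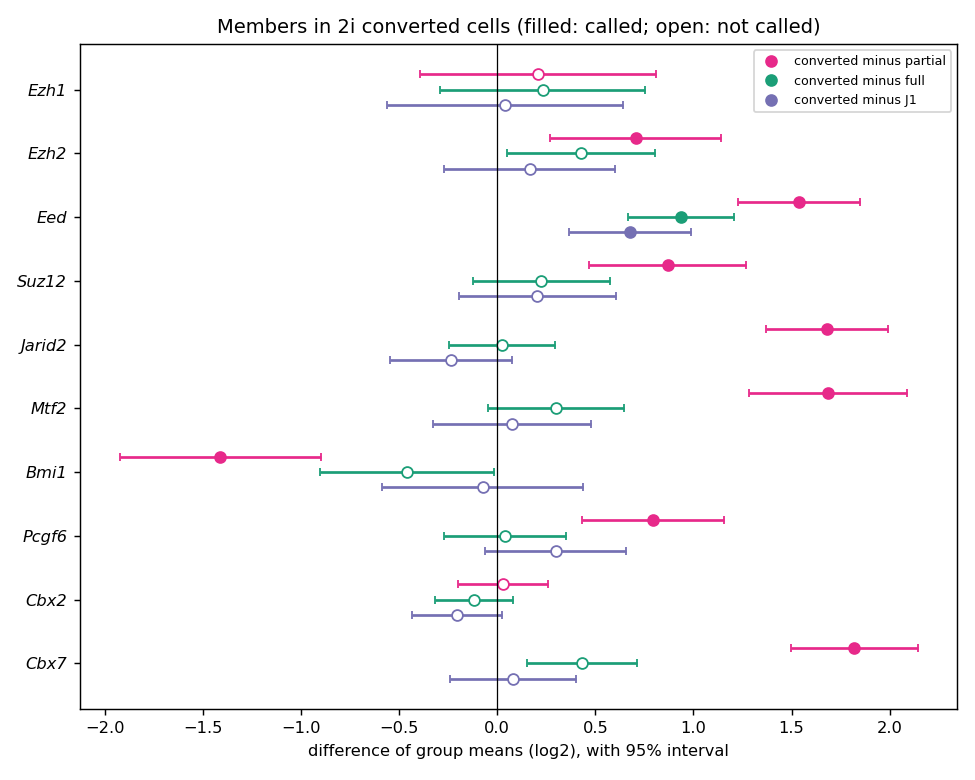
Difference of group means on the log2 scale (x axis) of 2i converted cells from the partial line, from the full lines and from J1 for each member (y axis), with 95% intervals. Filled points were called and open ones were not. Against the partial line 8 members are filled, and against the full lines and J1 only Eed is, at 0.94 and 0.68.

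Converted cells, which alone had received the inhibitors, were set beside the full lines and J1 to see where the members ended. Against the full lines only Eed was called, 1.91-fold higher in converted cells (0.94 ± 0.13, limma adjusted p = 0.000371), where 5.16% of all genes were called. Cbx7 followed at 0.43 ± 0.13 (95% interval 0.15 to 0.71, adjusted p = 0.0728). It passed when replicate 2 of EOS3F-29 (adjusted p = 0.0267), replicate 2 of EOS3F-28 (0.0471) or replicate 1 of the converted cells (0.0256) was left out. Jarid2 differed by 0.03 (95% interval -0.24 to 0.30), so a gap as wide as that of the partial line lay outside its interval. Ezh2 (0.43, 0.05 to 0.80) and Bmi1 (-0.46, -0.90 to -0.01) missed the threshold at adjusted p = 0.212 and 0.264.

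Against J1 again only Eed was called, 1.60-fold higher in converted cells (0.68 ± 0.15, limma adjusted p = 0.0234), while 1.72% of all genes were called. This Eed call did not hold without converted replicate 2 (adjusted p = 0.0731) or 3 (0.135), nor without J1 replicate 2 (0.096) or 3 (0.103). It was also lost with both Eed probe sets averaged (adjusted p = 0.0511), with housekeeping centring (0.0585) and with only these groups in the fit (0.19). The other 9 members lay between -0.24 for Jarid2 and 0.30 for Pcgf6, with adjusted p of 0.521 or more.

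The full lines and J1 were not separated at any member, with 0 of 10 called, where 4.76% of all genes were. Without adjustment, 1 member passed 0.05 (limma): Cbx7, lower in the full lines by -0.35 ± 0.13 (adjusted p = 0.163). The widest interval among the larger differences was that of Bmi1, 0.39 with -0.06 to 0.83. Without J1 replicate 2, Eed was called lower in the full lines (-0.46, adjusted p = 0.0345). The 2 full lines also had 0 of 10 called by limma, and 0 at an unadjusted p under 0.05, beside 0.532% of all genes called. Their differences lay between -0.17 for Suz12 and 0.28 for Ezh1, and those with the widest intervals, such as Ezh1 at -0.32 to 0.88, do not exclude changes of over 1.5-fold.

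The wider set of PRC2 genes did not move as a block. Of 7 other PRC2 genes, 3 were called higher and 0 lower in the partial line than in MEFs, with a median difference of 0.30, beside 13.7% and 10% of all genes. In the full lines the counts were 3 and 0 with a median of 0.10 (all genes 17.1% and 17.8%), and in J1 2 and 0 with a median of -0.07 (all genes 20.6% and 17.5%). Cyclic loess gave 2 and 1 in the partial line (2138 and 2581 of all 19937 genes). Housekeeping centring gave 4 and 0 in the full lines (8288 and 2318 of all genes). Epop, a cofactor of the Mtf2-containing form of PRC2, was 1.15 ± 0.21 higher in full iPS cells than in MEFs (limma adjusted p = 0.000388) and 1.19 ± 0.25 higher in J1 (adjusted p = 0.0009). Rbbp4, a histone-binding subunit, was 0.61 ± 0.10 and 0.95 ± 0.11 higher.

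In the partial line PRC2 cofactors split. Aebp2, which works with Jarid2 in one form of PRC2, averaged 6.51 there against 5.88 in the full lines (0.63 ± 0.10, limma adjusted p = 0.000236), and Lcor, whose locus also encodes a PRC2 cofactor, 5.81 against 5.25 (0.55 ± 0.10, adjusted p = 0.000969). Rbbp7 (-0.53 ± 0.10) and Rbbp4 (-0.31 ± 0.10) were lower, at adjusted p = 0.000702 and 0.032, which made 2 higher and 2 lower of 7. The arrays of Rbbp7 overlapped: it averaged 8.73 in the partial line, 8.85 in EOS3F-28 and 9.65 in EOS3F-29, so its difference came mostly from EOS3F-29. On conversion the same number moved each way. Lcor fell by 0.81 and Aebp2 by 0.74 (adjusted p = 8.21e-05 and 0.000162), whereas Epop was 0.82 ± 0.25 and Rbbp4 0.49 ± 0.11 higher (adjusted p = 0.0231 and 0.00359). Against MEFs, Lcor was 0.65 ± 0.12 and Epop 0.81 ± 0.25 higher in the partial line (adjusted p = 0.000616 and 0.0226), and the Epop call was lost with cyclic loess (0.0594). Without the replicate 1 arrays of feeder-grown groups, Epop was lost on conversion (adjusted p = 0.0779) and Rbbp4 between the partial and full lines (0.0782).

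Among 20 other PRC1 genes the largest rise was that of Phc1, a polyhomeotic subunit of canonical PRC1. It averaged 4.74 in MEFs, 6.22 in the partial line, 7.38 in the full lines, 7.44 in J1 and 7.33 in converted cells. The difference from MEFs was 1.48 ± 0.20 in the partial line and 2.64 ± 0.17 in the full lines (limma adjusted p = 3.3e-05 and 4.69e-09), and conversion raised it by 1.11 ± 0.20 (adjusted p = 0.000531). L3mbtl2, a partner of Pcgf6 in its variant PRC1, averaged 5.03 in MEFs, 5.91 in the partial line, 7.09 in converted cells and 7.19 in J1. It was 1.62 ± 0.11 higher in the full lines than in MEFs (adjusted p = 3.94e-09) and rose by 1.18 ± 0.12 on conversion (adjusted p = 1.71e-06).

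Other PRC1 genes followed different courses. Bcor, a corepressor in the Pcgf1 form of PRC1, averaged 5.23 in the partial line, 4.35 in MEFs, 4.46 in the full lines and 4.27 in converted cells. It was thus 0.88 ± 0.14 above MEFs and 0.77 ± 0.12 above the full lines (limma adjusted p = 0.000115 and 0.000123), and it fell by 0.96 on conversion (adjusted p = 4.69e-05). Its relative Bcorl1 was 0.56 ± 0.12 above the full lines (adjusted p = 0.00293), a call lost with housekeeping centring (0.0674). Pcgf2, the closest relative of Bmi1, was lower in the partial line than in the full lines (4.74 against 5.54, adjusted p = 2.03e-06), opposite to Bmi1. Phc3 (-0.72 ± 0.19) and the Rybp relative Yaf2 (-0.59 ± 0.16) were lower in full iPS cells than in MEFs (adjusted p = 0.00709 and 0.00815). In J1, Yaf2 (-0.98 ± 0.19) and E2f6 (-0.90 ± 0.13) were lower than in MEFs. Yaf2 also fell by 0.66 on conversion (adjusted p = 0.0162), and Scmh1 was -0.35 ± 0.10 lower in the partial line than in MEFs (adjusted p = 0.0194), which housekeeping centring removed (0.125).

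Over these 20 genes, 5 were called higher and 1 lower in the partial line than in MEFs, beside 13.7% and 10% of all genes. The counts were 6 and 7 in the full lines (all genes 17.1% and 17.8%), 6 and 6 in J1 (20.6% and 17.5%), and 6 and 5 on conversion (9.36% and 13%). Medians were 0.14, 0.06, 0.10 and -0.04. Between the partial and full lines 6 were higher and 6 lower (all genes 12.8% and 5.78%). With cyclic loess the split became 3 and 6, where 1812 of all 19937 genes were higher and 1614 lower. Centring each array on housekeeping genes gave 1 and 6 (all genes 1312 and 3106). On that scale the splits against MEFs became 10 and 4 for the full lines (all genes 8288 and 2318) and 8 and 3 for J1 (7006 and 2546). On conversion the split on that scale was 6 and 3 (all genes 1911 and 2274). Between the partial line and J1, 6 were higher and 5 lower (all genes 13.3% and 9.65%). This became 6 and 7 with cyclic loess (all genes 2506 and 2306) and 4 and 7 with housekeeping centring (1768 and 3125). The largest differences were those of Bcor (0.81 ± 0.14) and E2f6 (0.79 ± 0.13) above and L3mbtl2 (-1.28 ± 0.12) and Phc1 (-1.22 ± 0.20) below.

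Among enzymes that oppose polycomb and their partners, every called difference against MEFs was an increase. Of 6 such genes, 2 were called higher and 0 lower in the partial line, 2 and 0 in the full lines and 3 and 0 in J1, all against MEFs. Of all genes, 13.7%, 17.1% and 20.6% were called higher and 10%, 17.8% and 17.5% lower. With only 6 genes, the lack of called falls is not read as a result about them. Housekeeping centring gave 3, 5 and 4 higher, and cyclic loess 1, 3 and 3, with 0 lower throughout. Of all 19937 genes, housekeeping centring called 2888, 8288 and 7006 higher and 1704, 2318 and 2546 lower. Cyclic loess called 2138, 3331 and 3546 higher and 2581, 3806 and 3962 lower. Kdm6a, a demethylase that removes H3K27me3, was 0.69 ± 0.16 higher in the partial line and 0.59 ± 0.14 higher in the full lines (limma adjusted p = 0.00433 and 0.00328). Asxl2, a partner of the H2A deubiquitinase Bap1, was 0.36 ± 0.12 and 0.49 ± 0.10 higher (adjusted p = 0.0318 and 0.000866), the former lost with cyclic loess (0.0644). On conversion Asxl2 rose by 0.46 ± 0.12 and Kdm6b, the other demethylase, fell by 0.58 (adjusted p = 0.00818 and 0.0063). Kdm6b was 0.44 ± 0.13 higher in the partial than in the full lines (adjusted p = 0.0196), a call that both other scalings removed.

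**Figure D4:**
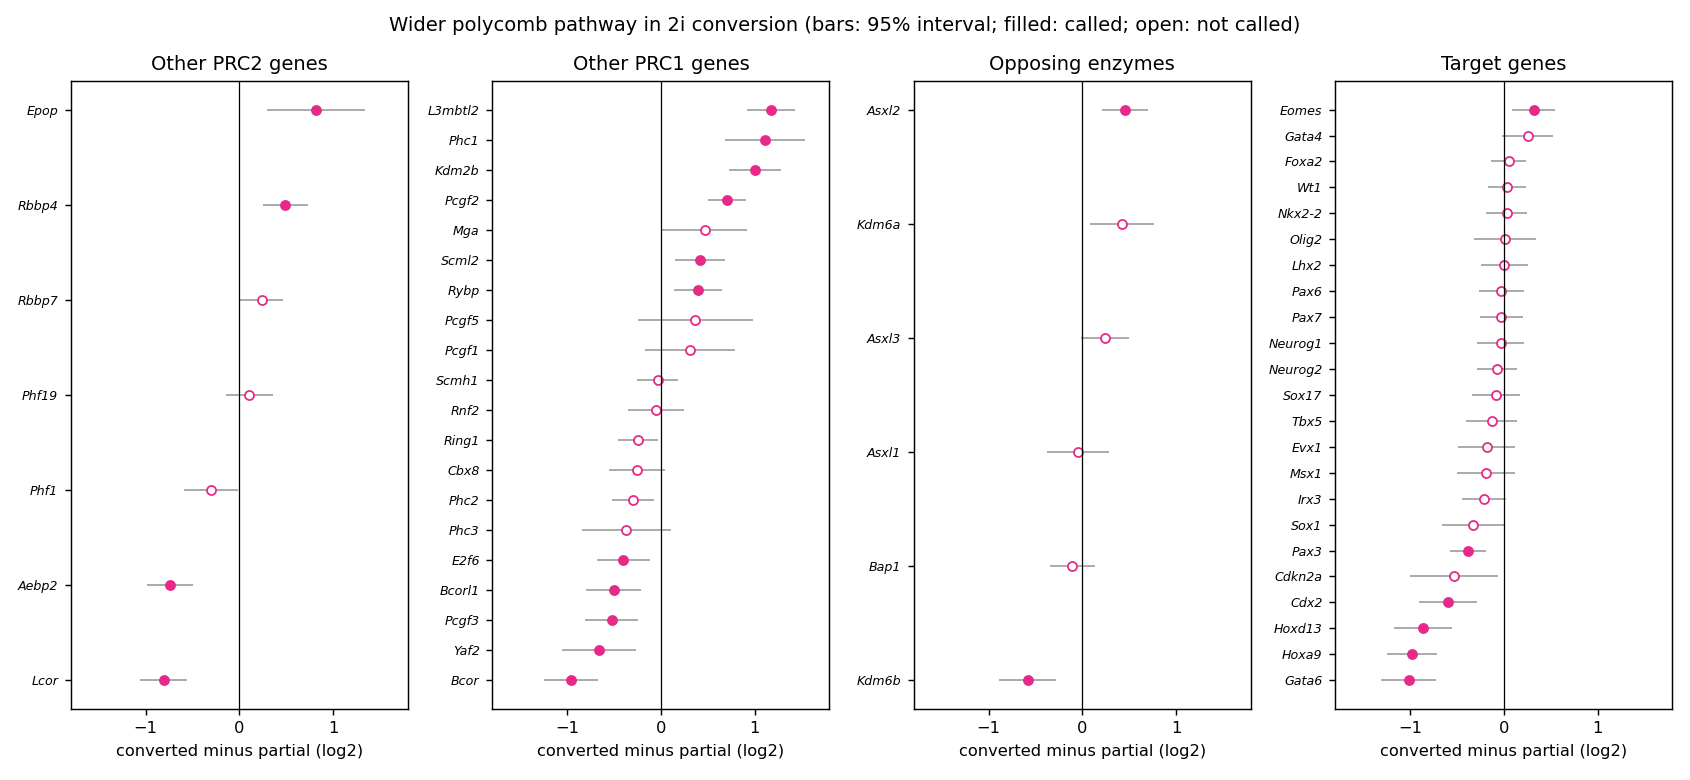
Difference of 2i converted cells from the partial line on the log2 scale (x axis) with 95% intervals for other PRC2 genes, other PRC1 genes, opposing enzymes and target genes (y axes). Filled points were called and open ones were not. L3mbtl2 at 1.18 and Phc1 at 1.11 lead the PRC1 genes, and Gata6 at -1.02 and Hoxa9 at -0.98 are the lowest target genes.

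Genes known as polycomb targets in ES cells, mostly lineage transcription factors, were dim in all groups: their mean over 23 genes was 3.86 to 3.93 on the MEF arrays, 4.12 to 4.22 in the partial line and 3.87 to 4.08 elsewhere, close to the array medians. The 3 partial arrays were the highest of all 18. Against MEFs 8 of 23 were called higher and 0 lower in the partial line, with a median of 0.25, beside 13.7% and 10% of all genes. That count became 4 and 1 under cyclic loess (2138 and 2581 of all 19937 genes) and 6 and 0 with housekeeping centring (2888 and 1704). Without the replicate 1 arrays of feeder-grown groups it was 4 and 1 (2878 and 2199 of all genes). Cdx2, a trophoblast and caudal regulator, was 0.76 ± 0.15 higher and Gata6, an endoderm regulator, 0.75 ± 0.14 higher (limma adjusted p = 0.001 and 0.000561).

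Against the full lines, 5 targets were higher in the partial line and 1 was lower, beside 12.8% and 5.78% of all genes. Hoxa9 averaged 5.04 against 4.10 (0.93 ± 0.11, limma adjusted p = 8.35e-06) and Gata6 5.44 against 4.54 (0.90 ± 0.12, adjusted p = 3.03e-05), and Eomes was lower by -0.60 ± 0.09 (adjusted p = 0.000171). On conversion 5 of 23 targets fell and 1 rose, beside 13% and 9.36% of all genes. Gata6 fell by 1.02 and Hoxa9 by 0.98 (adjusted p = 3.08e-05 and 2.01e-05), and Eomes was 0.32 ± 0.11 higher (adjusted p = 0.0431). The Eomes call was lost with housekeeping centring (adjusted p = 0.0828) and without the replicate 1 arrays of feeder-grown groups (0.157). The median of all 23 on conversion was -0.08, with a range of -1.02 to 0.32. Of these targets 16 lay below 0, and 17 were not called.

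In the full lines 2 targets were called higher than in MEFs and 1 lower (all genes 17.1% and 17.8%), and in J1 3 and 3 (20.6% and 17.5%). Eomes (0.77 ± 0.09) and Sox1 (0.48 ± 0.14) were higher in the full lines and Hoxa9 lower (-0.52 ± 0.11), with limma adjusted p = 5.13e-06, 0.0103 and 0.00113. These splits depended on scale: with housekeeping centring, which moved the median of all genes to 0.26 in the full lines and 0.25 in J1, they became 14 and 0, and 12 and 1. No direction is therefore given for the targets of the full lines and J1 against MEFs. The Hoxa9 call of the full lines was lost on that scale (adjusted p = 0.0532). The members kept 9 higher and 1 lower in both comparisons on that scale. Of all 19937 genes, housekeeping centring called 8288 higher and 2318 lower in the full lines, and 7006 and 2546 in J1.

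Feeder signal differed between arrays of the same group. Replicate 1 had the highest fibroblast and feeder marker mean in all 5 feeder-grown groups, at 7.72 in the partial line, 7.18 in converted cells, 7.34 in EOS3F-28, 8.03 in EOS3F-29 and 7.11 in J1, and the other arrays of these groups lay between 5.79 and 6.78. On the same replicate 1 arrays Bmi1 was the highest of its group in 4 of 5 groups, Ezh2 the lowest in 5 of 5, and Ezh1, Suz12 and Cbx7 the lowest in 4 of 5. Eed and Pcgf6 were each highest in 2 groups and lowest in 2, and Jarid2 highest in 2 and lowest in 3. Mtf2 was lowest in 3, and Cbx2 highest in 1 and lowest in 0. The means of pluripotency and dividing-cell genes were also lowest on replicate 1 in 4 of 5 groups. The part of feeder signal in these values was not tested.

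Without the 5 replicate 1 arrays of feeder-grown groups, 8 members were called between the partial line and MEFs, since Bmi1 (-0.57, limma adjusted p = 0.029) and Ezh1 (0.85, adjusted p = 0.0107) passed. Conversion then called 7, with Ezh2 lost (0.71, adjusted p = 0.0581) and Bmi1 at -1.41 (adjusted p = 8.94e-05). Of all 19937 genes, 5077 were then called between the partial line and MEFs, against 4717 with all arrays. On conversion 4408 were called, against 4456 with all arrays. Cbx2 was lost against MEFs in the full lines (adjusted p = 0.106) and J1 (0.0582), and Suz12 and Pcgf6 were lost between the partial line and J1 (0.0631 and 0.379).

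**Figure D5:**
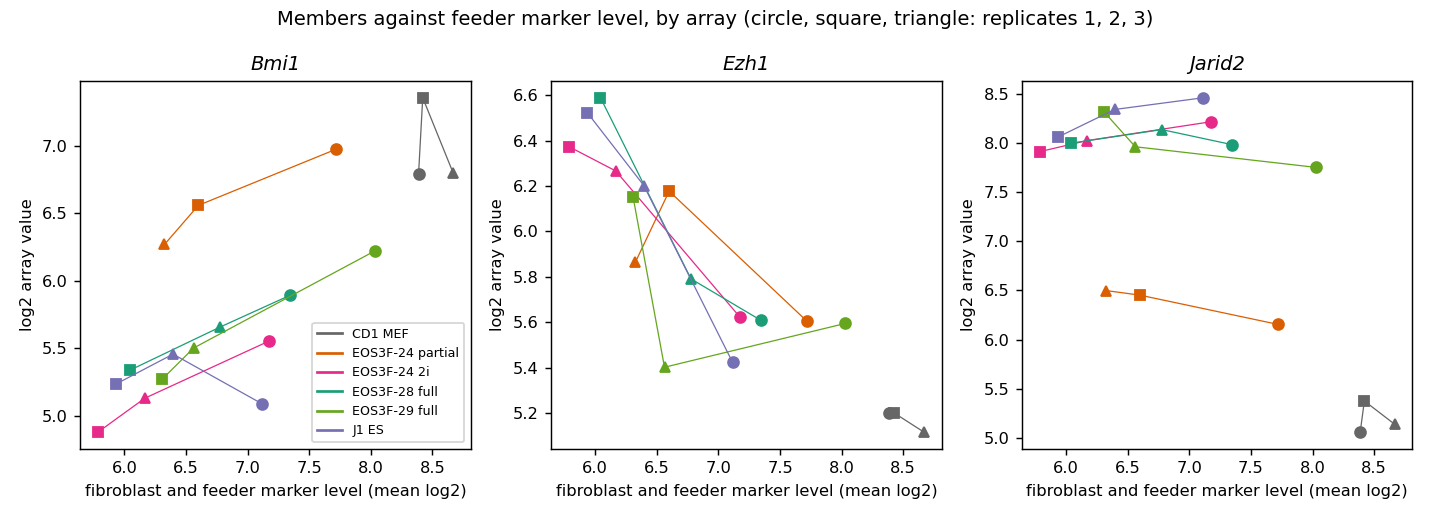
Log2 array value of Bmi1, Ezh1 and Jarid2 (y axes) against the mean log2 value of 13 fibroblast and feeder markers (x axis) on each array, with lines joining arrays of a group. Circles mark replicate 1, which lies furthest right in all 5 feeder-grown groups. The 3 partial arrays lie at marker means of 6.32 to 7.72, and their Bmi1 values, 6.27 to 6.97, lie above those of the 4 other feeder-grown groups, 4.88 to 6.22.

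Among the members, the most alike courses over the 6 group means, after each gene was centred, were those of Suz12 with Pcgf6 and Ezh2 with Suz12, each with a root mean square difference of 0.14, and of Mtf2 with Cbx7 at 0.20. Among 3929 genes with a mean of at least 6, those nearest to Jarid2 were Spint2 (0.22), Phc1 (0.23) and Chchd10 (0.23), and those nearest to Mtf2 were Igf2bp1 (0.13), Esco2 (0.14) and Hells (0.14). Likeness over 6 group means is a description of these arrays.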

How the data were processed

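The authors deposited 1 log2 value per probe set and array. The submitters' processing notes name RMA. RNA was labelled with a whole-transcript assay, per the labels' protocols. Neither its version nor a genome build is given in the sources used here. RMA evens out array distributions, which hides a change shared by most genes, and compresses differences near background. The number of arrays limits the precision.

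The members and gene lists were chosen with earlier results of these data known. Of 34760 probe sets, 21640 had 1 symbol in the platform annotation, 1321 had several and 11799 had none listed. Each gene was taken on its probe set with the highest mean. The 18 arrays entered a single limma 3.58.1 model (lmFit, eBayes, R 4.3.3) with a mean for each group. The procedure was run on simulated data with independent noise, which cannot test the effect of structure shared between arrays. The calling threshold was an adjusted p of 0.05 over 19937 genes. Errors are SE of a difference, with 3 arrays a group and 6 for the full lines together.

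Other lists held 7 PRC2, 20 PRC1, 6 opposing, 23 target, 13 fibroblast and feeder, 12 pluripotency, 15 dividing-cell and 10 housekeeping genes as measured. Of the housekeeping genes, 1 was called higher and 4 lower in full iPS cells against MEFs, with a median of -0.18, and none between converted cells and J1. Named genes are all members, the 2 largest called rises and falls of the first 4 lists in each comparison described, and the 3 genes most like the 2 members with the widest range.

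Equal replicate numbers were checked by correlating deviations from the group means. Every number exceeded 0.1 in the partial line against J1 (0.208, 0.242 and 0.223), in converted against partial cells (0.383, 0.140 and 0.122), in converted cells against J1 (0.563, 0.454 and 0.150) and between the full lines (0.542, 0.639 and 0.149). This pairing comes from the values, not the labels. Alternatives were the mean of probe sets, cyclic loess, centring on housekeeping genes, a filter on genes with a mean under 5, only the groups compared, a trended robust variance, the replicate block, single full lines and each array left out. Promoters came from the RefSeq GRCm38.p6 table.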

Additional observations from a re-analysis of the deposited data

How the results depend on the processing

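Over 1600 refits of member differences under the alternatives, 1528 kept their call status, 57 lost a call, 15 gained one and 0 called differences reversed. Differences called in neither fit counted as kept whatever their sign, and some of these changed sign. Leaving out the feeder-grown replicate 1 arrays was chosen after seeing the data. With single arrays left out, the members called were 3 to 6 for the partial line against MEFs (6 with all arrays), 1 to 2 for converted against full cells (1), 0 to 1 for converted cells against J1 (1) and 0 to 1 for the full lines against J1 (0). For converted cells against J1 the count was 0 with the mean of probe sets, with housekeeping centring and with only the groups compared. With the replicate block it was 2 for converted against full cells (Cbx7, limma adjusted p = 0.0164) and 1 for the full lines against J1 (Cbx7, adjusted p = 0.0499). In these comparisons equal numbers did not pair the arrays at number 3 (r = -0.100 and -0.114). At numbers 1 and 2 they did, with r = 0.629 and 0.506 for converted against full cells and 0.613 and 0.483 for the full lines against J1. Where every number exceeded 0.1, the block changed only the call of Pcgf6 between the partial line and J1. In the other comparisons the count of members called stayed within 1.5 times under every alternative. Counts over all genes fell when dim genes were left out: 4717 to 2811 (partial line against MEFs), 6968 to 4306 (full lines against MEFs), 7585 to 4600 (J1 against MEFs), 3702 to 2274 (partial against full), 4571 to 2866 (partial against J1), 4456 to 2897 (conversion) and 106 to 49 (between full lines), with fewer genes tested. Housekeeping centring gave 10606 for the full lines against MEFs, 8288 higher and 2318 lower against 3417 and 3551 as deposited. When EOS3F-29 alone stood for the full lines, 493 genes differed from converted cells (1029 with both) and 374 from J1 (949). With only the groups compared, 173 genes differed between converted cells and J1 (342), 520 between the full lines and J1 (949) and 46 between the full lines (106), and the replicate block gave 1509 for the full lines against J1. With single arrays left out, the all-gene counts fell as low as 2380 for partial against full cells (without partial replicate 2), 351 for converted against full cells (without converted replicate 2), 133 for converted cells against J1 and 303 for the full lines against J1 (both without J1 replicate 3), and 43 between the full lines (without EOS3F-28 replicate 2 or 3). The causes of these shifts were not tested. Second probe sets exist only for Eed. Cbx2, Cbx7 and the target genes lay within about 1 log2 unit of the array medians in MEFs, where array signal limits what can be seen.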

Other observations

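Some of the 33 other polycomb genes measured differed among the full lines, J1 and converted cells. Rbbp7, a histone-binding subunit of PRC2, averaged 8.85 in EOS3F-28 and 9.65 in EOS3F-29, a difference of -0.80 ± 0.11 with no overlap between their arrays (limma adjusted p = 0.00176). Rnf2, a catalytic subunit of PRC1, averaged 5.91 in the full lines and 6.64 in J1 (-0.74 ± 0.12, adjusted p = 0.00188), again with no overlap. L3mbtl2 averaged 6.66 in the full lines, lower than 7.19 in J1 (-0.53 ± 0.11, adjusted p = 0.00645) and than 7.09 in converted cells (0.43 ± 0.11 higher in converted cells, adjusted p = 0.0231), and both calls were lost without the replicate 1 arrays of feeder-grown groups (adjusted p = 0.132 and 0.118), the latter also with housekeeping centring (0.14). Kdm6a was 0.53 ± 0.14 higher in converted cells than in the full lines (adjusted p = 0.0366), which was lost with housekeeping centring (0.0727) and without those arrays (0.135). Rbbp7 was 0.48 ± 0.10 higher in the full lines than in J1 (adjusted p = 0.00645), with overlap between the arrays. These were 1 of the 33 between the full lines, where 0.532% of all genes were called, 3 of 33 between the full lines and J1 (4.76% of all genes) and 2 of 33 between converted cells and the full lines (5.16%), and the last share is near that of all genes.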
